A study of Mus musculus with 6 samples.

Results

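The genes described here act in homologous recombination, in the Fanconi anaemia pathway and in the checkpoint that watches over replication forks. The list names 40 genes, and each was followed through its brightest probe set, taken only from probe sets that the platform annotation pairs with that gene alone. By this rule 37 of the 40 were measured, out of 18193 genes tested in all; Xrcc2, Rbbp8 and H2afx were not analysed here.

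Homologous recombination repairs a broken chromosome by copying the intact sister, so it works in cells that have replicated their DNA. The ends are trimmed to single strands, and BRCA1 with BARD1, PALB2 and BRCA2 prepares them to pair with the sister. Fanconi proteins detect and unhook crosslinks between DNA strands when a fork meets them, and the kinases ATR and CHK1 slow the cycle while forks are stalled. The hair matrix is among the fastest dividing tissues of the body, and hair loss is a known effect of drugs that damage DNA.

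RNA came from 3 populations of untreated female CD-1 mice, sorted by flow cytometry from back skin, with 2 Affymetrix arrays each. Quiescent hair follicle stem cells (qHF-SC) were sorted with integrin α6 and CD34 at postnatal days 52 to 60. For activated stem cells (aHF-SC) the markers were GFP, integrin α6 and CD34 at postnatal days 28 to 30, and for transient-amplifying matrix cells (HF-TAC) they were GFP, integrin α6 and ephrinB1 at the same age. The labels name no driver for the GFP and no separate animals for the replicates, so p-values cover only how far these arrays differ, which may be technical. The qHF-SC mice were older, and each population had its own set of sorting markers, so age and sort cannot be told apart from cell state.

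The deposited values are probe set intensities on a linear scale, and the median probe set of an array lay between 22.8 and 23.9. Replicates correlated at 0.989 to 0.992 on the log2 scale, across genes, which are not independent replicates. The 5 matrix markers (Msx2, Lef1, Shh, Hoxc13 and Dlx3) summed to 508 to 1096 on the stem cell arrays and to 2710 and 5178 on the HF-TAC arrays. The 6 bulge markers (Cd34, Lhx2, Sox9, Nfatc1, Lgr5 and Krt15) summed to 28899 to 39081 on the stem cell arrays and to 9322 and 6577 in HF-TAC. Most of that sum was Krt15, at 20796 to 24671 on the stem cell arrays and 8075 and 4744 in HF-TAC. CD34 was a sorting marker of both stem cell groups, so Cd34 is no separate check of them. Differences were tested with limma on log2 intensities over all genes, and a gene was called at a Benjamini-Hochberg adjusted p of at most 0.05.

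In the matrix cells most repair genes were higher: 23 of 37 rose from aHF-SC to HF-TAC, and 25 of 37 were higher in HF-TAC than in qHF-SC. Over all genes tested, 8.97% rose in the first of these comparisons and 13.4% in the second. By limma 0 repair genes fell in either comparison, where 8.57% and 12.9% of all genes fell. At an unadjusted p under 0.05, 0 of 37 repair genes were lower in HF-TAC than in aHF-SC and 1 was lower than in qHF-SC, against 2551 and 3204 of the 18193 genes. Their median difference was 1.02 on the log2 scale (2.03-fold) against aHF-SC and 1.21 (2.32-fold) against qHF-SC, beside -0.01 in both for all genes. The comparisons share the HF-TAC arrays and are not independent. Leaving out aHF-SC replicate 2 lowered the count against aHF-SC from 23 to 14, while 4.21% of all genes were then called higher.

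Between quiescent and activated stem cells the share of repair genes called was near that of all genes. Of 37 genes 1, Timeless, rose in aHF-SC against qHF-SC, where 3.07% of all genes rose, and 0 fell by limma, where 3.21% of all genes fell. At an unadjusted p under 0.05, 11 of 37 repair genes were higher and 2 lower, against 1864 and 1821 of the 18193 genes, and the median difference was 0.27 on the log2 scale beside 0.00 for all genes. Both aHF-SC arrays lay above both qHF-SC arrays for 20 of 37 repair genes and 25.7% of all genes. HF-TAC arrays lay above those of aHF-SC for 31 of 37 (26.4% of all genes) and above those of qHF-SC for 30 of 37 (30.0%).

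**Figure D1:**
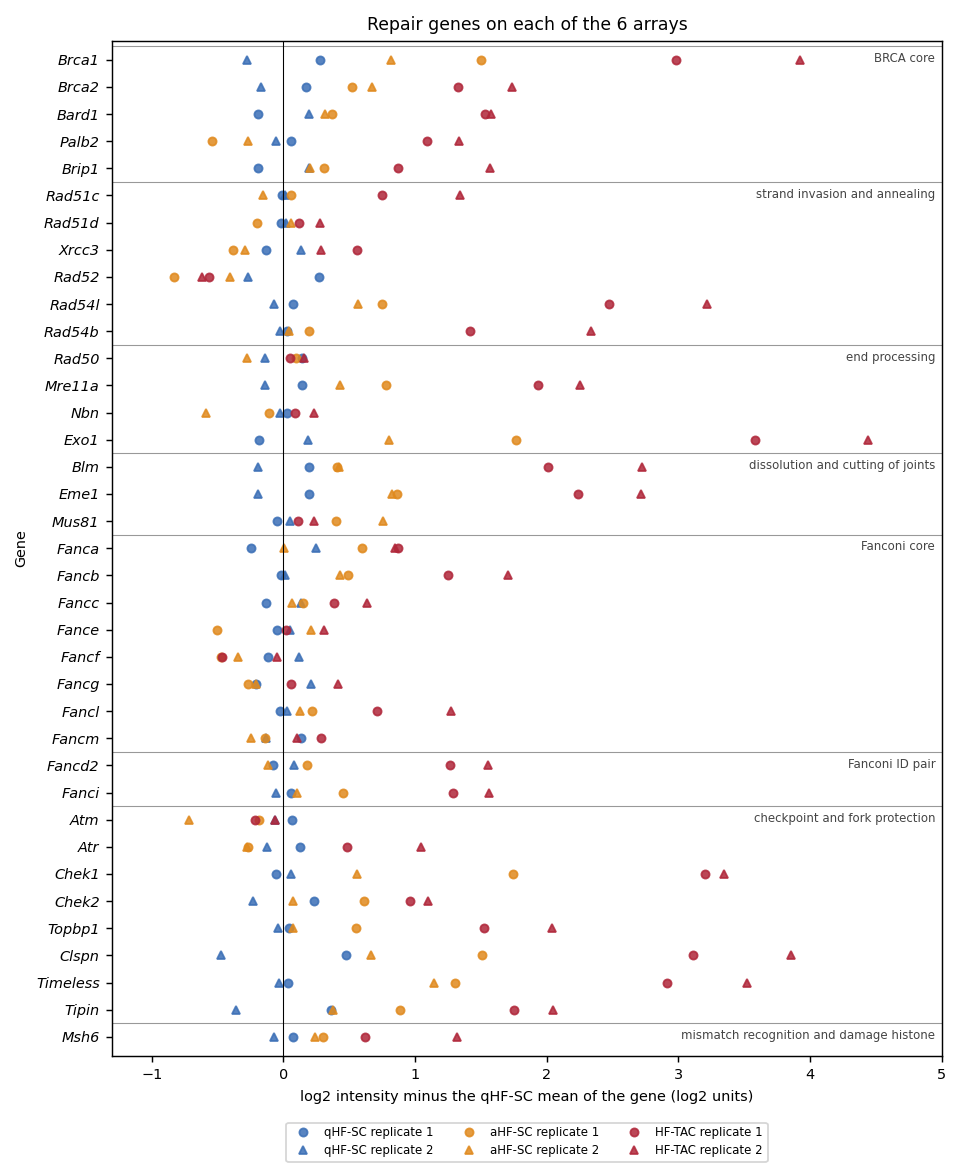
Log2 intensity of each of the 37 repair genes on every array, as the distance from the qHF-SC mean of that gene; colours give the population, circles replicate 1 and triangles replicate 2, and horizontal lines part the role groups. Both HF-TAC arrays lie above all 4 stem cell arrays for 29 of the genes. This was not counted over all genes, where it can hold for at most 26.4%, the share with HF-TAC above aHF-SC. HF-TAC replicate 2 lies to the right of replicate 1 for 33 of the 37 genes. Replicate 2 was the higher for 9704 of all 18193 genes.

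By mean level, 23 genes ran in the order HF-TAC, aHF-SC, qHF-SC, and 10 in the order HF-TAC, qHF-SC, aHF-SC. The other orders held 3 genes with qHF-SC highest (Rad52, Fancf and Atm) and 1 with aHF-SC highest (Mus81). The difference between aHF-SC and qHF-SC did not pass in 36 of 37 genes, Timeless being the exception, and for 14 genes that between HF-TAC and aHF-SC did not pass either. Of the 37 genes, 26 were called in at least 1 comparison, 22 of them in both HF-TAC comparisons, and 11 in none. Neither the orders nor these combined calls were counted over all genes, so they cannot be set against a general share. For both HF-TAC comparisons, at most 8.97% of all genes can be higher, the share higher against aHF-SC.

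**Figure D2:**
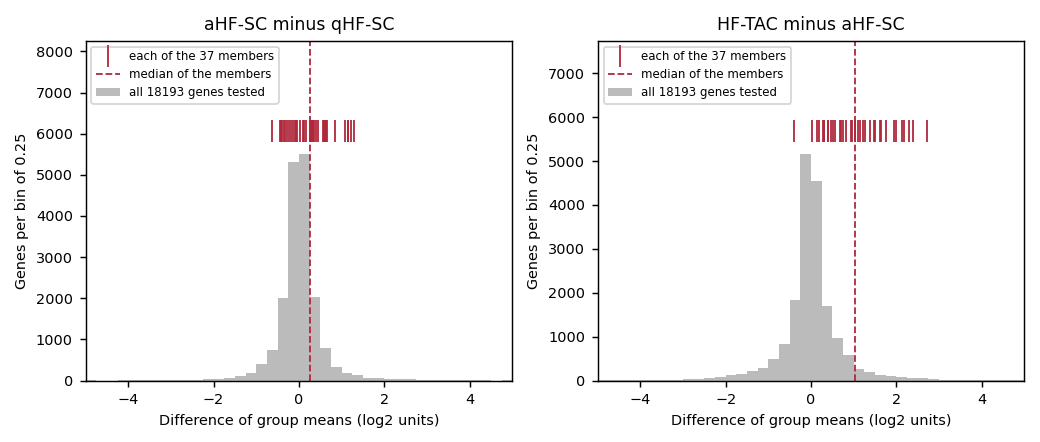
Histograms of the log2 differences of all 18193 genes in bins of 0.25, with each of the 37 repair genes as a tick and their median as a dashed line; the axis ends at 5 in either direction, short of a few genes. The median lies at 0.27 for aHF-SC minus qHF-SC and at 1.02 for HF-TAC minus aHF-SC.

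Cell division genes moved in the same arrays. Of 12 S phase genes, among them 6 of the Mcm helicase, 11 rose in HF-TAC against aHF-SC (median log2 difference 1.55), as did 9 of 9 mitosis genes (2.57). From qHF-SC to aHF-SC, 3 of 12 S phase and 8 of 9 mitosis genes rose, with medians of 0.63 and 2.52. The replicates differed in the same sense. HF-TAC replicate 2 exceeded replicate 1 for 33 of 37 repair genes, 12 of 12 S phase genes and 9 of 9 mitosis genes, by medians of 0.32, 0.45 and 0.46 on the log2 scale. Over all 18193 genes, HF-TAC replicate 2 was the higher for 9704, by a median of 0.02. aHF-SC replicate 1 exceeded replicate 2 for 27 of 37, 11 of 12 and 9 of 9, and for 8621 of all genes. qHF-SC replicate 1 exceeded replicate 2 for 21 of 37, 7 of 12 and 6 of 9, and for 9060 of all genes. How far the share of cycling cells enters the differences was not tested, and in bulk RNA fewer cells with a transcript and less of it per cell cannot be told apart.

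Some markers of other cells moved with the groups as well. Of 5 fibroblast markers 1, Dcn, rose in HF-TAC against aHF-SC, and the list summed to 363 to 637 on the stem cell arrays and to 3795 and 6312 in HF-TAC. Most of that sum was Dcn, at 3646 and 5927, while Pdgfra stood at 9.94 and 16.6 and Col1a1 at 36.7 and 46.2 on those arrays. Col1a1, Col1a2 and Col3a1 had lower means in HF-TAC than in aHF-SC (log2 differences of -0.69, -0.63 and -1.02). These differences did not pass by limma, 1 having an unadjusted p under 0.05. Against qHF-SC, Col1a2 was called lower in HF-TAC (-1.73, limma adjusted p = 0.0194). Of 5 melanocyte markers 3 rose in HF-TAC against qHF-SC, and the list summed to 155 to 340 on the stem cell arrays and to 419 and 617 in HF-TAC. Differentiated keratinocyte markers summed to 9265 to 10833 in qHF-SC, 3083 to 3765 in aHF-SC and 8211 to 12678 in HF-TAC; of the 5, HF-TAC had 3 higher than aHF-SC and 1 higher than qHF-SC. Immune markers (summed intensity 126 to 188 over all arrays) and endothelial markers (60.9 to 80.7) had 0 members called higher in HF-TAC by limma. Of the endothelial markers 1, Cdh5, was called lower in HF-TAC than in qHF-SC (limma adjusted p = 0.0461). At an unadjusted p under 0.05, immune markers had 2 higher against aHF-SC and 1 against qHF-SC, with 0 lower. Endothelial markers had 0 higher and 1 lower in each HF-TAC comparison. The 2 erythroid markers measured summed to 25.5 to 33.3 and were called nowhere by limma (0 at an unadjusted p under 0.05). The part of these cells in the repair gene differences was not tested.

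The promoters of the repair genes were read because so many of the genes moved together. RefSeq start sites on GRCm38.p6 gave 32 promoters for 30 of the 37 genes, each from 250 bases before to 50 bases after the start. They were searched on both strands for E2F type octamers (TTTGGCGC, TTTCCCGC, TTTCGCGC or TTTGCCGC), the CHR element TTTGAA and the CCAAT box CCAAT; the motifs were allowed to overlap. E2F factors drive genes of the G1 to S transition, and CHR and CCAAT boxes are common in genes of late cycle. An E2F type octamer was found in 9 of 32 promoters (28.1%), against 2.26% of all 32851 promoters and 3.2% of those of tested genes. A CCAAT box was found in 18 of 32 (56.2%), against 37.4% both of all promoters and of those of tested genes. A CHR was found in 2 of 32 (6.25%), against 17.9% of all and 13.4% of those of tested genes. Among promoters of 56.9 to 62.8% GC, the middle of the range of the repair genes, 2 of 16 held an E2F octamer, against 4.29% of the promoters of tested genes in that range. A match is a description of letters, not of binding.

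The 9 octamers are printed with up to 26 bases on each side, on the gene's strand and 5′ to 3′, the octamer in capitals, so that their surroundings can be compared. Of the 8 genes here, 7 were called higher in HF-TAC against at least 1 stem cell group (Chek2 and Msh6 against qHF-SC only) and Fancg in neither; of the 30 genes with a promoter, 22 were called higher in this sense. The stretches lie at chr1:71103148-71103207 (minus strand, Bard1), chr5:150522427-150522486 (plus, Brca2), chr5:110839805-110839864 (plus, Chek2), chr4:126556975-126557029 (plus, Clspn), chr4:43010320-43010379 (minus, Fancg), chr17:87975039-87975098 (plus, Msh6), chr11:87404462-87404521 and chr11:87404926-87404985 (minus, 2 start sites of Rad51c) and chr9:103305172-103305231 (plus, Topbp1).
Bard1: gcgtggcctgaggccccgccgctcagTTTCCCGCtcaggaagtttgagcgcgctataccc
Brca2: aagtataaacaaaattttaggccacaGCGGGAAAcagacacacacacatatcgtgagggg
Chek2: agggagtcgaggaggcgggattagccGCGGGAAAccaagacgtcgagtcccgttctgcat
Clspn: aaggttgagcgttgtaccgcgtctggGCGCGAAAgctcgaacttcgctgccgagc
Fancg: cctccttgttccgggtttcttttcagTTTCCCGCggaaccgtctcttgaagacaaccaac
Msh6: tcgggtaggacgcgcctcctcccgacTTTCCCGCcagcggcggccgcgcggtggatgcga
Rad51c, first stretch: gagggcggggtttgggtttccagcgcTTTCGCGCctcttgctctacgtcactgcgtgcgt
Rad51c, other stretch: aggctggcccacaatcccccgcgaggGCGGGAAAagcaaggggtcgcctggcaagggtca
Topbp1: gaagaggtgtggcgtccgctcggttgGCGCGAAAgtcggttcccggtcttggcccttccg

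Both full promoters below belong to genes with some of the largest HF-TAC differences, Brca1 (chr11:101551906-101552205, minus strand) and Clspn (chr4:126556730-126557029, plus strand). Capitals mark every searched motif: 1 CCAAT box in Brca1, and 2 reversed CCAAT boxes and the reversed E2F octamer in Clspn.
Brca1: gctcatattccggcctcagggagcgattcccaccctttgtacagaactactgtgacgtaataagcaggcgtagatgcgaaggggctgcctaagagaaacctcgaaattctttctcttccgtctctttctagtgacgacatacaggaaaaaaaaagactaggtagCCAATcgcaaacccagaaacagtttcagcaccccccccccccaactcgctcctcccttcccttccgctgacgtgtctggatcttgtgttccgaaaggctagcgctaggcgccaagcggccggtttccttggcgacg
Clspn: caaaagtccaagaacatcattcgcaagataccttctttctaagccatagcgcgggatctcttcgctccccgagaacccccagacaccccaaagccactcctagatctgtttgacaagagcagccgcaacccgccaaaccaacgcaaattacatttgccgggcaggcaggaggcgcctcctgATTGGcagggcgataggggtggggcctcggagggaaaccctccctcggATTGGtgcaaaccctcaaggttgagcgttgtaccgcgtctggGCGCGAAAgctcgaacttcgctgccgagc

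**Figure D3:**
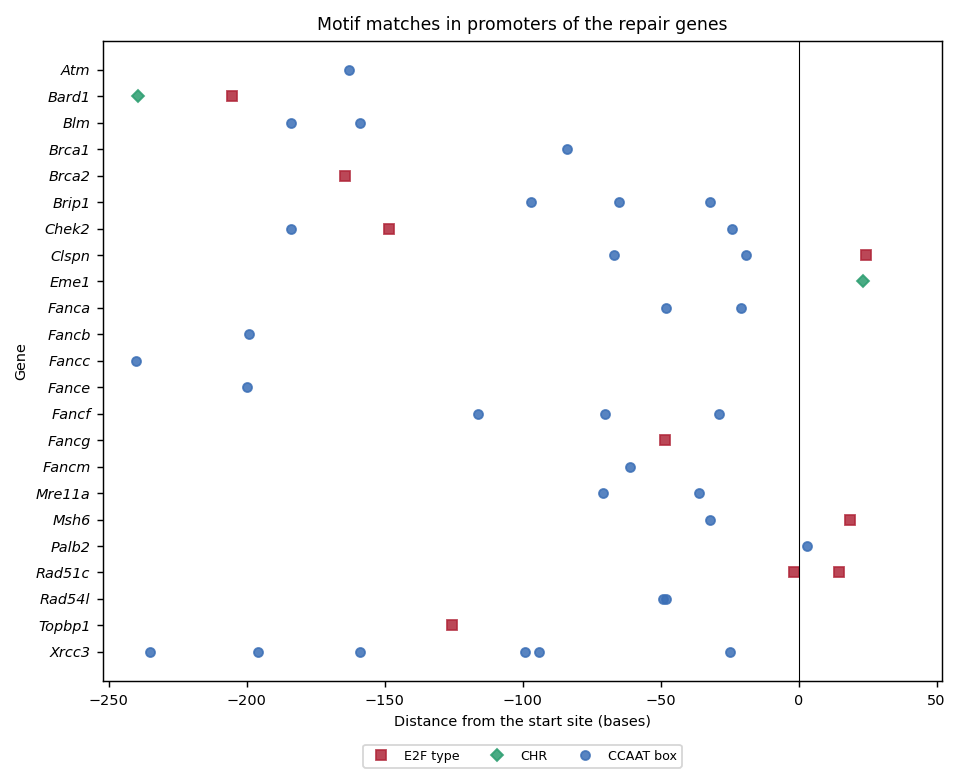
Midpoints of motif matches on either strand, by distance in bases from the RefSeq start site, for the repair genes with at least 1 match; squares are E2F type octamers, circles CCAAT boxes and diamonds CHR elements. The 9 E2F octamers fall in 8 genes, the farthest upstream in Bard1 and the farthest downstream in Clspn; matches at both start sites of Rad51c and of Rad54l are drawn in 1 line each.

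The BRCA core comprises the ubiquitin ligase pair Brca1 and Bard1, the bridging factor Palb2, the recombination mediator Brca2 and the helicase Brip1. All 5 of 5 were higher in HF-TAC than in either stem cell group, and 0 of 5 passed by limma between the stem cell groups (3 at an unadjusted p under 0.05). Brca1 had intensities of 21.8 and 14.9 in qHF-SC, 50.9 and 31.8 in aHF-SC and 142 and 272.6 in HF-TAC. The 3 groups did not overlap, and both HF-TAC arrays were far above the rest. The difference of HF-TAC from aHF-SC was 4.90-fold (2.29 ± 0.36 SE on the log2 scale, limma adjusted p = 0.00561), and from qHF-SC 10.9-fold (adjusted p = 0.000638). That between the stem cell groups was 2.23-fold and did not pass (1.16 ± 0.36, adjusted p = 0.123). Brca1 has 4 probe sets, of which 3 were brighter in HF-TAC and 1 stood between 14.2 and 19.7 on all arrays; with the mean of all 4 the log2 difference from aHF-SC was 1.23 and from qHF-SC 1.69, both still past the threshold.

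Palb2 stood at 40.04 and 37.1 in qHF-SC, 26.5 and 32.0 in aHF-SC and 82.1 and 97.1 in HF-TAC. Here the activated stem cells were the lowest group, and only the HF-TAC arrays stood apart by the test (3.07-fold over aHF-SC, 1.62 ± 0.17 SE, limma adjusted p = 0.00129). Its difference between the stem cell groups was -0.40 ± 0.17 (adjusted p = 0.246). Brca2 read 25 and 19.7, 31.8 and 35.4, then 55.5 and 73.6 in the same order of groups, without overlap. It was 1.91-fold higher in HF-TAC than in aHF-SC (adjusted p = 0.0193) and 2.89-fold higher than in qHF-SC (adjusted p = 0.00151). The first of these Brca2 calls ended without aHF-SC replicate 1 (adjusted p = 0.0927) or 2 (0.0688) and without HF-TAC replicate 2 (0.0898).

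Bard1 and Brip1 were dim. Bard1 was at 6.5 and 8.48 in qHF-SC, 9.59 and 9.25 in aHF-SC and 21.5 and 22.2 in HF-TAC, all under the median probe set. The HF-TAC arrays were close to each other and lay 2.32-fold above aHF-SC (1.21 ± 0.17 SE, limma adjusted p = 0.00378). With 16 added to every intensity before the log2, which damps dim values, the Bard1 difference was 0.57 and still passed. Brip1 ranged from 6.75 to 9.56 on the stem cell arrays and reached 14.1 and 22.9 in HF-TAC. Its call against aHF-SC (1.95-fold, adjusted p = 0.0398) ended without HF-TAC replicate 2 (0.151), without aHF-SC replicate 1 (0.111) or 2 (0.168) and with only the 4 arrays compared (0.0557), and its call against qHF-SC without qHF-SC replicate 1 (0.0742).

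The genes of strand invasion and annealing (Rad51c, Rad51d, Xrcc3, Rad52, Rad54l and Rad54b) encode proteins that help a trimmed end to pair with the sister. Of the 6 measured, 4 rose in HF-TAC against aHF-SC and 3 against qHF-SC. Rad54l, a motor protein of strand invasion, was at 19.2 and 17.5 in qHF-SC, 30.8 and 27.1 in aHF-SC and 101 and 170 in HF-TAC. The groups did not overlap, and HF-TAC was 4.55-fold above aHF-SC (2.19 ± 0.25 SE, limma adjusted p = 0.00164) and 7.17-fold above qHF-SC (adjusted p = 0.0003). The mean of its 4 probe sets gave a log2 difference of 1.25 from aHF-SC and 1.57 from qHF-SC, past the threshold as well. Its relative Rad54b was dim, at 5.44 to 6.32 in the stem cells and 14.8 and 27.9 in HF-TAC (3.39-fold over aHF-SC, adjusted p = 0.00571). With 16 added to the intensities the Rad54b difference was 0.74 (adjusted p = 0.0523).

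Rad51c, which acts early in strand invasion, stood at 96.4 and 98.4 in qHF-SC, 101 and 87.2 in aHF-SC and 163 and 247 in HF-TAC. The stem cell groups overlapped and the matrix arrays were above them. HF-TAC was 2.14-fold above aHF-SC (1.10 ± 0.22 SE, limma adjusted p = 0.0139) and 2.06-fold above qHF-SC (adjusted p = 0.0111). The first call ended without aHF-SC replicate 2 (adjusted p = 0.0866) and the other without qHF-SC replicate 1 (0.0605) or 2 (0.0585). Its second probe set, at 11.3 to 15.8 in stem cells and 23.7 and 40.3 in HF-TAC, differed by 1.04 from aHF-SC. Xrcc3, the partner of the Rad51c product, was 1.69-fold above aHF-SC (adjusted p = 0.0244), a call that ended without probe sets open to cross-hybridisation (0.182), with the mean of both probe sets (0.0576) and without aHF-SC replicate 1 (0.104) or 2 (0.0876) or HF-TAC replicate 1 (0.0987).

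Rad51d and Rad52 were called in no comparison. Rad51d stood at 62.9 and 64.6 in qHF-SC, 55.5 and 66.3 in aHF-SC and 69.1 and 77.4 in HF-TAC, within 1.21-fold between any pair of group means. Rad52, a single-strand annealing protein, had its highest arrays in qHF-SC (135 and 93.2), with 63.0 and 84.7 in aHF-SC and 75.9 and 73.1 in HF-TAC. The qHF-SC arrays lay above all others, but the differences of -0.62 ± 0.23 SE for aHF-SC (limma adjusted p = 0.183) and -0.59 ± 0.23 for HF-TAC (adjusted p = 0.107) did not pass.

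**Figure D4:**
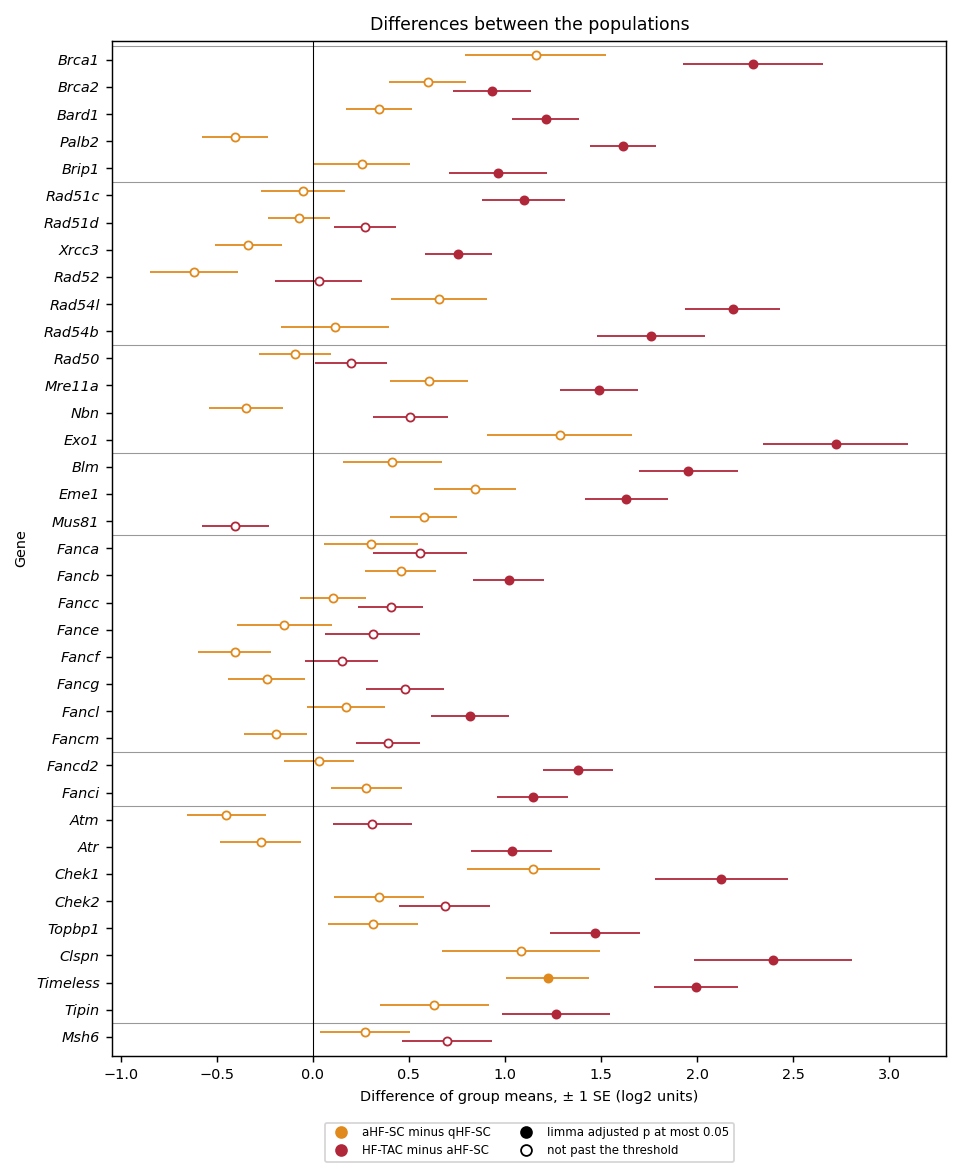
Log2 differences of group means with 1 SE for the 37 repair genes, aHF-SC minus qHF-SC in orange and HF-TAC minus aHF-SC in red; filled points are past a limma adjusted p of 0.05. Filled red points number 23 and filled orange points 1 (Timeless), and Mus81 is the one gene with a red point left of 0.

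End processing genes behaved unequally. The nuclease gene Exo1 stood at 10.7 and 13.8 in qHF-SC, 41.4 and 21.3 in aHF-SC and 146 and 264 in HF-TAC. The groups did not overlap; HF-TAC was 6.60-fold above aHF-SC (2.72 ± 0.38 SE, limma adjusted p = 0.00336) and 16.1-fold above qHF-SC (adjusted p = 0.000399), a level under the median probe set. The aHF-SC difference of 1.29 ± 0.38 did not pass (adjusted p = 0.102). Averaged over its 3 probe sets the log2 differences of HF-TAC were 1.44 and 1.77, and with 16 added to the intensities the second was 2.91; each passed.

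MRE11, RAD50 and NBS1 form the complex that first holds a broken end. Mre11a stood at 75.6 and 62.1 in qHF-SC, 118 and 92.4 in aHF-SC and 261 and 327 in HF-TAC, 2.81-fold above aHF-SC (1.49 ± 0.20 SE, limma adjusted p = 0.00305) and 4.27-fold above qHF-SC (adjusted p = 0.000435). Rad50 was at 127 and 105, 123 and 95.3, then 120 and 129, with all groups overlapping. Nbn, which encodes NBS1, was at 261 and 251, 237 and 170, then 271 and 300. Their HF-TAC minus aHF-SC differences of 0.20 ± 0.19 and 0.51 ± 0.19 did not pass (adjusted p = 0.594 and 0.128). The Mre11a value rests on 1 of its 2 probe sets, which ends in _a_at; the other stood at 19.2 to 28.4 on all arrays and gave 0.11 (adjusted p = 0.843) and 0.02 (0.966), and the mean of both gave 0.80 and 1.06, past the threshold. Whether Mre11a differed from Rad50 and Nbn was not tested.

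Joined chromosomes are separated either by dissolution, which needs the helicase Blm, or by cutting, which the pair Mus81 and Eme1 performs. Blm was at 29.8 and 22.7 in qHF-SC, 34.5 and 34.8 in aHF-SC and 105 and 172 in HF-TAC (3.88-fold over aHF-SC, 1.95 ± 0.26 SE, limma adjusted p = 0.00268). Eme1, the regulatory subunit, was at 22.3 and 17, 35.4 and 34.4, then 91.6 and 128 (3.10-fold over aHF-SC, 1.63 ± 0.21, adjusted p = 0.00268, and 5.56-fold over qHF-SC, adjusted p = 0.000291). For both genes the 3 groups did not overlap. Eme1 had the second smallest adjusted p between the stem cell groups (1.79-fold, adjusted p = 0.0677), and it passed with each array scaled to its 75th percentile and with only the 4 arrays compared. Mus81, the catalytic subunit, ran otherwise: 134 and 144, 182 and 234, then 149 and 163. Its highest arrays were those of aHF-SC, in the second probe set too, and its differences of 0.58 ± 0.17 for aHF-SC minus qHF-SC and -0.40 ± 0.17 for HF-TAC minus aHF-SC did not pass (adjusted p = 0.11 and 0.177).

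**Figure D5:**
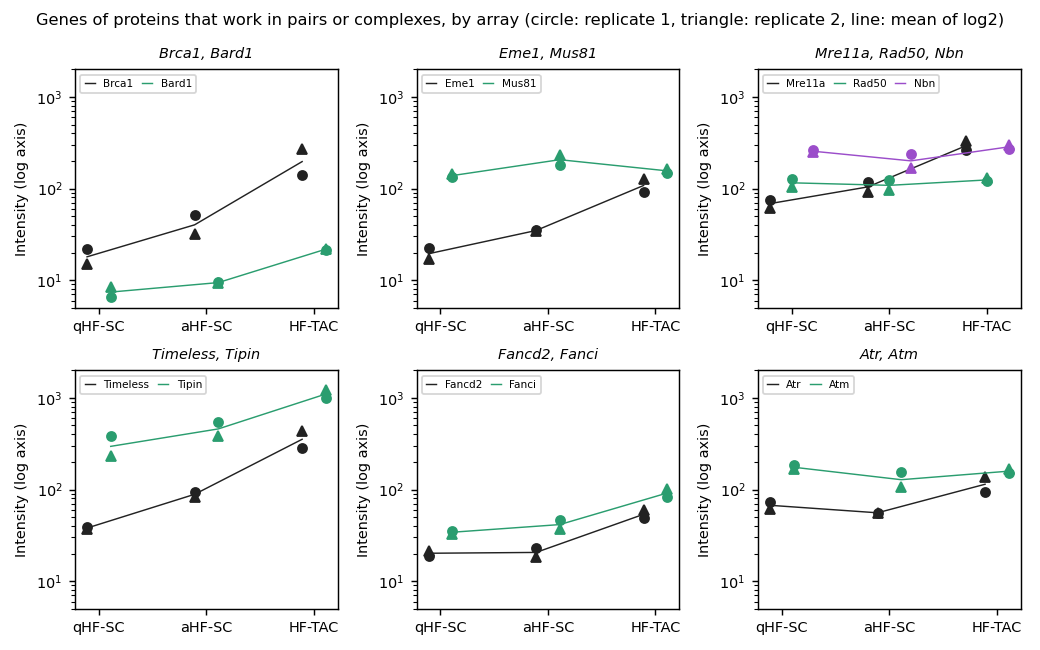
Intensities on a log axis by population for genes whose products work together; circles are replicate 1, triangles replicate 2, and lines join the means of the log2 values. Eme1, Mre11a, Atr and Timeless were called higher in HF-TAC than in either stem cell group, while Mus81, Rad50, Nbn and Atm were called in no comparison. The means of Rad50 and Nbn are also highest in HF-TAC. Heights of different genes are not comparable, since each has its own probes.

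The Fanconi core complex adds ubiquitin to FANCD2 and FANCI, and FANCL is its ligase. Of 8 core genes 2 rose in HF-TAC against aHF-SC, Fancb and Fancl, and 3 rose against qHF-SC, the same pair and Fanca; the medians were 0.44 and 0.37 on the log2 scale. Fancb was at 14.7 and 15.1 in qHF-SC, 20.9 and 20.0 in aHF-SC and 35.4 and 48.5 in HF-TAC, with no overlap (2.03-fold over aHF-SC, limma adjusted p = 0.00948; 2.78-fold over qHF-SC, adjusted p = 0.00123). Without aHF-SC replicate 2 the first of these had an adjusted p of 0.0586. Fancl stood at 144 and 149, 171 and 160, then 240 and 354, and HF-TAC was 1.76-fold above aHF-SC (adjusted p = 0.0336) and 1.99-fold above qHF-SC (adjusted p = 0.0108).

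The Fancl call against aHF-SC ended without aHF-SC replicate 1 (limma adjusted p = 0.0968) or 2 (0.149), without HF-TAC replicate 2 (0.124), with only the 4 arrays compared (0.0622) and with the mean of both probe sets (0.146). Its call against qHF-SC ended without qHF-SC replicate 1 (0.0613) or 2 (0.0556). Fanca was at 48.8 and 68.4 in qHF-SC, 87.5 and 58.1 in aHF-SC and 106 and 104 in HF-TAC, 1.81-fold above qHF-SC (limma adjusted p = 0.0383). This Fanca call was lost with replicate number as a block (0.065), with quantile normalisation repeated (0.0549), with the mean of both probe sets (0.0601), with 16 added (0.0665) and without qHF-SC replicate 1 (0.207) or HF-TAC replicate 1 (0.112) or 2 (0.111). Fancc, Fance, Fancf, Fancg and Fancm were called nowhere, and their HF-TAC minus aHF-SC differences ran from 0.15 (Fancf) to 0.48 (Fancg). Fancc, Fancg and Fancm were higher than in aHF-SC at an unadjusted limma p under 0.05 (0.0481, 0.0478 and 0.0494). The Fancm probe sets not used gave log2 differences of 0.87 and -0.13 there. Both substrates of the core, by contrast, were called in both HF-TAC comparisons; the difference from the core was not tested.

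Fancd2 stood at 19.0 and 21.4 in qHF-SC, 22.8 and 18.6 in aHF-SC and 48.5 and 59.3 in HF-TAC. The stem cell groups overlapped, and the matrix arrays were 2.61-fold above aHF-SC (1.38 ± 0.18 SE, limma adjusted p = 0.00277). Fanci was at 35.6 and 32.8, 46.8 and 36.7, then 83.4 and 101, 2.21-fold above aHF-SC (1.15 ± 0.18, adjusted p = 0.00591). Against qHF-SC the differences were 2.66-fold and 2.68-fold (adjusted p = 0.00138 and 0.00141). The mean of 4 probe sets was also taken for Fancd2, the other 3 of them at 7.59 to 29.3 over all arrays, and the difference from aHF-SC was then 0.55 (limma adjusted p = 0.0355). The mean of the 2 Fanci probe sets gave 0.43 (adjusted p = 0.0845), the second being at 6.31 to 9.15 on all arrays.

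The checkpoint group had 6 of its 8 genes rise from aHF-SC to HF-TAC, and 7 were higher in HF-TAC than in qHF-SC. Clspn, which encodes the adaptor claspin that brings CHK1 to ATR, was at 26.9 and 13.9 in qHF-SC, 55.0 and 30.6 in aHF-SC and 167 and 279 in HF-TAC. The replicates of each group were well apart, yet the groups did not overlap (5.27-fold over aHF-SC, 2.40 ± 0.41 SE, limma adjusted p = 0.00768). Without aHF-SC replicate 2 its adjusted p was 0.0508. Chek1, the effector kinase, stood at 22.5 and 24.3, 78.1 and 34.3, then 215 and 237, 4.37-fold above aHF-SC (2.13 ± 0.34, adjusted p = 0.00597) and 9.68-fold above qHF-SC. Its aHF-SC arrays differed most: leaving out aHF-SC replicate 1 gave a log2 difference of 2.72 for HF-TAC and leaving out replicate 2 gave 1.53, past the threshold both times. The mean of its 5 probe sets gave 1.40 and that of the 2 of Clspn 1.52, and both passed.

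Timeless and Tipin encode a pair that travels with the fork and steadies it. Timeless was at 38.9 and 37.0 in qHF-SC, 93.7 and 83.9 in aHF-SC and 287 and 436 in HF-TAC. Each step was clear of overlap, with 2.33-fold from qHF-SC to aHF-SC (1.22 ± 0.22 SE, limma adjusted p = 0.0227) and 3.99-fold from aHF-SC to HF-TAC (1.99 ± 0.22, adjusted p = 0.00139). Its second probe set gave 1.09 and 1.48 for the same steps. The first step lost its call without qHF-SC replicate 1 (adjusted p = 0.0841) or 2 (0.144), without aHF-SC replicate 1 (0.114) or 2 (0.0764) and with 16 added (0.0766). Tipin was at 380 and 230, 546 and 385, then 994 and 1220, the values of both stem cell groups just clear of each other. Its HF-TAC difference from aHF-SC (2.40-fold, adjusted p = 0.0218) ended without aHF-SC replicate 2 (0.126) or HF-TAC replicate 2 (0.099) and with 16 added (0.051), and that from qHF-SC was 3.72-fold (adjusted p = 0.00261).

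Topbp1, the activator of ATR, was at 197 and 186 in qHF-SC, 281 and 201 in aHF-SC and 551 and 786 in HF-TAC (2.77-fold over aHF-SC, limma adjusted p = 0.00555). Atr itself was at 73.2 and 61.8, 55.8 and 55.6, then 94.2 and 138, 2.05-fold above aHF-SC (adjusted p = 0.0157) and 1.70-fold above qHF-SC (adjusted p = 0.035). The mean of its 3 probe sets, of which 2 lay at 4.63 to 17.3 on all arrays, ended both Atr calls (adjusted p = 0.0909 and 0.32). The Atr call against aHF-SC also ended without aHF-SC replicate 1 (0.0647) or 2 (0.0794) or HF-TAC replicate 2 (0.0573), and that against qHF-SC with the replicate number as a block (0.0553), with 16 added (0.0585), with only the 4 arrays compared (0.0566) and without qHF-SC replicate 1 (0.0767) or 2 (0.183) or HF-TAC replicate 2 (0.152). Chek2 was at 98.3 and 71.4, 128 and 88.3, then 163 and 179, and passed against qHF-SC only (2.04-fold, adjusted p = 0.0163; 0.0947 against aHF-SC). The Chek2 call ended without qHF-SC replicate 2 (0.107) or HF-TAC replicate 2 (0.0722). Atm, the kinase of double-strand breaks, ran at 183 and 167, 154 and 106, then 150 and 167, and was called nowhere, its largest difference being -0.45 ± 0.21 for aHF-SC minus qHF-SC (adjusted p = 0.28).

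Msh6, of the protein pair that recognises mismatches, was at 270 and 244 in qHF-SC, 317 and 303 in aHF-SC and 395 and 641 in HF-TAC. The groups did not overlap; HF-TAC was 1.96-fold above qHF-SC (limma adjusted p = 0.0201) and 1.62-fold above aHF-SC, which did not pass (adjusted p = 0.0874). The Msh6 call ended without qHF-SC replicate 1 (0.0696) or 2 (0.111) or HF-TAC replicate 2 (0.0648).

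Other genes linked to DNA repair or its checkpoints were measured too, not all of them in the same pathways. Of 32 measured companions, from the RPA subunits to RNF168, 12 rose in HF-TAC against aHF-SC and 10 against qHF-SC, with medians of 0.55 and 0.36 on the log2 scale. Between the stem cell groups 2 rose and 1, the kinase gene Wee1, was lower. Among the largest in HF-TAC against aHF-SC, and named after their values were seen, were Dna2, a nuclease of end resection, at 3.06 ± 0.23 SE (limma adjusted p = 0.000417), and Ube2t, the ubiquitin-conjugating enzyme of the Fanconi core, at 2.47 ± 0.21 (0.000633). Fan1 was not analysed here.

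Among other repair routes, of 6 end joining genes 1, Xrcc6, rose in HF-TAC in either comparison, and the median differences were 0.42 against aHF-SC and 0.21 against qHF-SC. Of 13 genes of base and nucleotide excision 3 rose and 1 fell against aHF-SC, and 4 rose and 3 fell against qHF-SC (medians 0.13 and 0.18). Of the 4 other mismatch repair genes measured, 0 were called by limma against aHF-SC (3 at an unadjusted p under 0.05) and 1, Mlh3, was lower against qHF-SC (medians 0.62 and 0.28). None of these lists was tested against another.

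Some of the repair genes were dim, which makes their folds uncertain. As a set they were near the level of all genes tested in the stem cells. The median repair gene stood at 58.1 to 61.8 on those arrays, beside 60.1 to 63.3 for all genes. In HF-TAC it stood at 105 and 138, beside 60.5 and 61.6. In qHF-SC 12 of 37 had a mean intensity of at most 23.9, the highest array median of all probe sets. In aHF-SC 5 did, and in HF-TAC 3 (Bard1, Rad54b and Brip1). The share of all genes under this bound was not counted. Exo1, Clspn, Brca1, Chek1 and Rad54l, with folds over qHF-SC from 7.17 to 16.1, are among the 12.

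Genes of similar pattern were sought only outside the gene lists named here, so repair, companion, cell division and marker genes could not appear. A minimum range over the 6 arrays was also required, which left 5284 candidates. By root mean square distance of centred log2 values, the candidates most like Brca1 were Sgo1 (0.101), Gmnn (0.181), Arhgap11a (0.186), Skp2 (0.189) and Zwilch (0.202). Sgo1 protects sister cohesion in division and Gmnn encodes geminin, an inhibitor of replication licensing. The candidates most like Fancd2 were Alg13 (0.0705), Nup37 (0.0753), Vcpkmt (0.086), 2700099C18Rik (0.0867) and Fabp12 (0.0896).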

How the data were processed

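Each array's deposited table holds linear intensities for 45101 probe sets; RMA is named, without version or role, per the submitters' processing notes, and software and chip definition are not given in the sources used. RMA usually quantile-normalises arrays, which presumes similar RNA distributions, and shrinks differences of dim probe sets. No detection calls were used. The arrays, not depth, limit precision: there were 2 per group.

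Leaving out 64 control, 932 several-gene and 9160 unnamed probe sets kept 34945; the highest mean log2 probe set of each gene gave 18193 genes, of which 9010 had a choice. Log2 intensities of all 6 arrays were fitted as group means with limma 3.58.1 in R 4.3.3 (3 residual and 4.25 prior degrees of freedom, two-sided, Benjamini-Hochberg over all genes). The fit was tested on simulated data, where it missed most of the smaller changes put in. A gene that did not pass may therefore still differ. No set test was run. Alternatives covered probe sets, scaling, a pseudocount of 16, a filter, the replicate block, eBayes options, array weights and each array left out.

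The repair genes and all lists were chosen with earlier results of these data known. Full values are given for up to 3 genes past the threshold with the largest difference per role group and comparison, with partner genes beside them; the bound on dim genes and the GC range were set after the values were seen. Promoters came from RefSeq (GRCm38.p6).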

Additional observations from a re-analysis of the deposited data

How the results depend on the processing

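No repair gene called in a comparison changed direction under any of the 10 other settings or with any of the 6 arrays left out. Of the 23 calls in HF-TAC against aHF-SC, 15 held in each other setting that measured the gene and 14 with each array left out; of the 25 against qHF-SC, 21 and 18 did. Leaving out an array of a compared group leaves 1 array there, assumed to vary like the other groups; leaving out one of the group not compared is the same fit as using only the 4 arrays compared, so it is no separate check. With an array left out, the count of genes higher ran from 14 to 23 against aHF-SC, from 19 to 24 against qHF-SC, and from 0 to 2 in aHF-SC against qHF-SC. Testing only genes above the median level left 21 of the 37. Of these, 8 were higher in HF-TAC than in aHF-SC and 11 than in qHF-SC. Of all genes then tested, 15.1% and 23.3% were called higher. Most of the 23 repair genes called against aHF-SC lay under the median level and were not among the 21. In aHF-SC against qHF-SC the count of 1 became 2 with scaling to the 75th percentile and with only the 4 arrays compared, and 0 with 16 added to the intensities; the cause was not tested. With 16 added, 215 of all genes were higher and 333 lower there, against 558 and 584; with an array left out these counts ran from 54 to 634 and from 70 to 720. For HF-TAC against aHF-SC the same counts ran from 766 to 1550 higher and 877 to 1316 lower, against 1632 and 1559, and for HF-TAC against qHF-SC from 1361 to 2308 and 1532 to 2280, against 2445 and 2345. Blocking on replicate number, the repair genes higher numbered 1, 23 and 23; samples of one number deviated together by r = 0.0615, 0.0838 and -0.127, so the numbers were not taken as pairs. Signal limits the dim genes.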
